A study of Mus musculus with 4 samples.

Results

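The genes described here encode the proteasome and its helpers, measured as mRNA in mouse leukaemia stem cells with and without a knockout of Rreb1, which encodes a zinc-finger transcription factor. They are the 46 genes, of 16442 in the deposited table, whose symbol begins with Psma, Psmb, Psmc, Psmd, Psme, Psmf or Psmg and a digit, leaving aside the 3 immunoproteasome genes Psmb8, Psmb9 and Psmb10. Both groups were RNA from leukaemic bone marrow of C57BL/6 mice, the first titled WT (2 libraries) and the second titled KO (2 libraries). The genotype field reads Rreb1-KO for KO replicate 1 and Rreb2-KO for KO replicate 2, and the extraction text speaks of TAMs while the titles speak of LSCs. The labels give no age of the mice, no way in which the leukaemia was raised, no deleted exon or Cre, and not whether a library came from 1 mouse or a pool. The p-values therefore measure the spread between these libraries.

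The proteasome is the protease that degrades proteins tagged with ubiquitin. Its 20S core is a barrel of stacked alpha and beta rings, with the active sites facing inward on 3 of the beta subunits. The 19S cap binds ubiquitin chains, removes them, and threads the substrate into the core with a ring of ATPases. Chaperones assemble both parts, and alternative caps such as PA28 and PA200 can take the place of the 19S cap. Cells adjust the supply of subunits largely by transcription, in which the factor NRF1 (gene Nfe2l1) raises proteasome genes when the protease is inhibited. Blood cells also express the immunoproteasome subunits, which replace the active-site subunits in newly made cores. By function the set holds 15 genes of the 20S core, 17 of the 19S cap and 7 assembly chaperones. It also holds 5 genes of activators or an inhibitor, and 2 genes counted apart from these roles. The latter are Psmc3ip, a partner in meiotic recombination named for binding Psmc3, and Psme2b. Psme2b is annotated as protein-coding, with a coding sequence near-identical to that of Psme2.

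Depth was 16590829 to 18451251 assigned reads per library. Rreb1 itself was at 5.24 and 6.57 FPKM (a level per kilobase of exon, corrected for library depth) in WT and 6.10 and 6.93 in KO, so the groups overlapped and whole-gene mRNA leaves the labels unchecked. Of genes that mark the labelled cells, Hoxa9 was at 28.9 to 35.8 FPKM, Meis1 at 10.8 to 11.9 and the progenitor receptor gene Kit at 3.65 to 7.36 in all 4 libraries. Kit was higher in both KO libraries, and the progenitor marker Cd34 was lower, at 68.3 and 71.5 against 50.5 and 49.8 FPKM. The list also holds early myeloid genes, and Elane stood highest among them at 5204 to 7205 FPKM, with overlapping groups. Mpo was lower in KO, at 399 and 309 FPKM in WT against 192 and 166 (log2 fold change −0.97). Cebpe was higher, at 192 and 177 against 245 and 221. Of 7 such genes limma called 0, 4 had an unadjusted p below 0.05, and limma-voom called 3. Marker lists of other cells differed between the groups. The summed level of 11 mature neutrophil genes, 8 of them called higher, was 1280 to 1305 FPKM in WT and 2948 to 3533 in KO. Ltf, Mmp8 and Cxcr2 of that list were not called, with log2 fold changes of −0.055, −0.041 and −0.11. The summed level of 9 macrophage genes, 4 of them called lower, was 649 to 690 and 498 to 522. Erythroid genes (6 tested, 5 called higher) summed to 83.2 to 91.7 and 421 to 514 FPKM, B cell genes (5 tested, 3 called lower) to 216 to 225 and 120 to 137, and mast cell and basophil genes (3 tested, 2 called lower) to 468 to 534 and 263 to 269. Against its list, the erythroid gene Klf1 was lower in KO (log2 fold change −0.72, limma unadjusted p = 0.034). The B cell gene Cd79a was higher (0.65, limma unadjusted p = 0.0031), and so was the mast cell and basophil gene Mcpt8 (0.22, limma unadjusted p = 0.039). Limma called none of these after adjustment. T and NK cell genes (5 tested, 0 called by limma, 3 at an unadjusted p below 0.05, 1 by limma-voom) summed to 298 to 358 and 365 to 433, most of it Nkg7. Nkg7 was the only one of the 5 above zero, and the genes past those thresholds (Cd3d, Trbc1 and Gzma by unadjusted p, Gzma by limma-voom) all lay lower in KO. No tested marker was at 0 in any library, the defining genes Mrc1, Slc4a1, Cd3e, Cd3g and Ms4a2 had means below 1 FPKM, and Pax5 and Fcer1a were not analysed here. In bulk RNA fewer cells of a type and less RNA per cell cannot be told apart, and the part of these cells in the values that follow was not tested.

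Most proteasome mRNAs were slightly lower in KO, none of them called by limma. All 46 genes passed the filter of a mean of at least 1 FPKM. By limma on log2(FPKM + 1), with p-values adjusted over the 11768 genes tested, 0 were higher and 0 lower at an adjusted p below 0.05, where 0.603% and 0.408% of all tested genes were called higher and lower. At an unadjusted p below 0.05, 16 were lower and 3 higher, against 9.35% and 11.4% of all genes. The log2 fold change was below zero in 38 of the 46, against 46% of all genes. Its median was −0.19 for the 46 and 0.025 for all genes tested. The set's median level was 64.0 FPKM against 7.22, and over all tested genes higher levels went with lower log2 fold changes (Spearman rho −0.23). With a filter at a mean of 5 FPKM the medians were −0.20 for the set and −0.017 for all genes. The part of level in this contrast was not tested. For 31 genes neither KO library reached the lower WT library (24.9% of all genes), for 7 both KO libraries exceeded the higher one (30.5%), and the groups overlapped for 8. The smallest two-sided p of an exact permutation test of 2 against 2 is 0.333, so each p here depends on limma's pooling of the spread over genes. By limma-voom on whole reads recovered from the FPKM, 6 of the 46 were lower (Psmd5, Psmd11, Psmc1, Psma6, Psmd3 and Psma5) and 1 was higher (Psme4), where 3.09% and 3.12% of 13315 genes were called. The adjusted p of those 7 by limma-voom ran from 0.018 (Psmd5) to 0.0497 (Psme4).

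**Figure D1:**
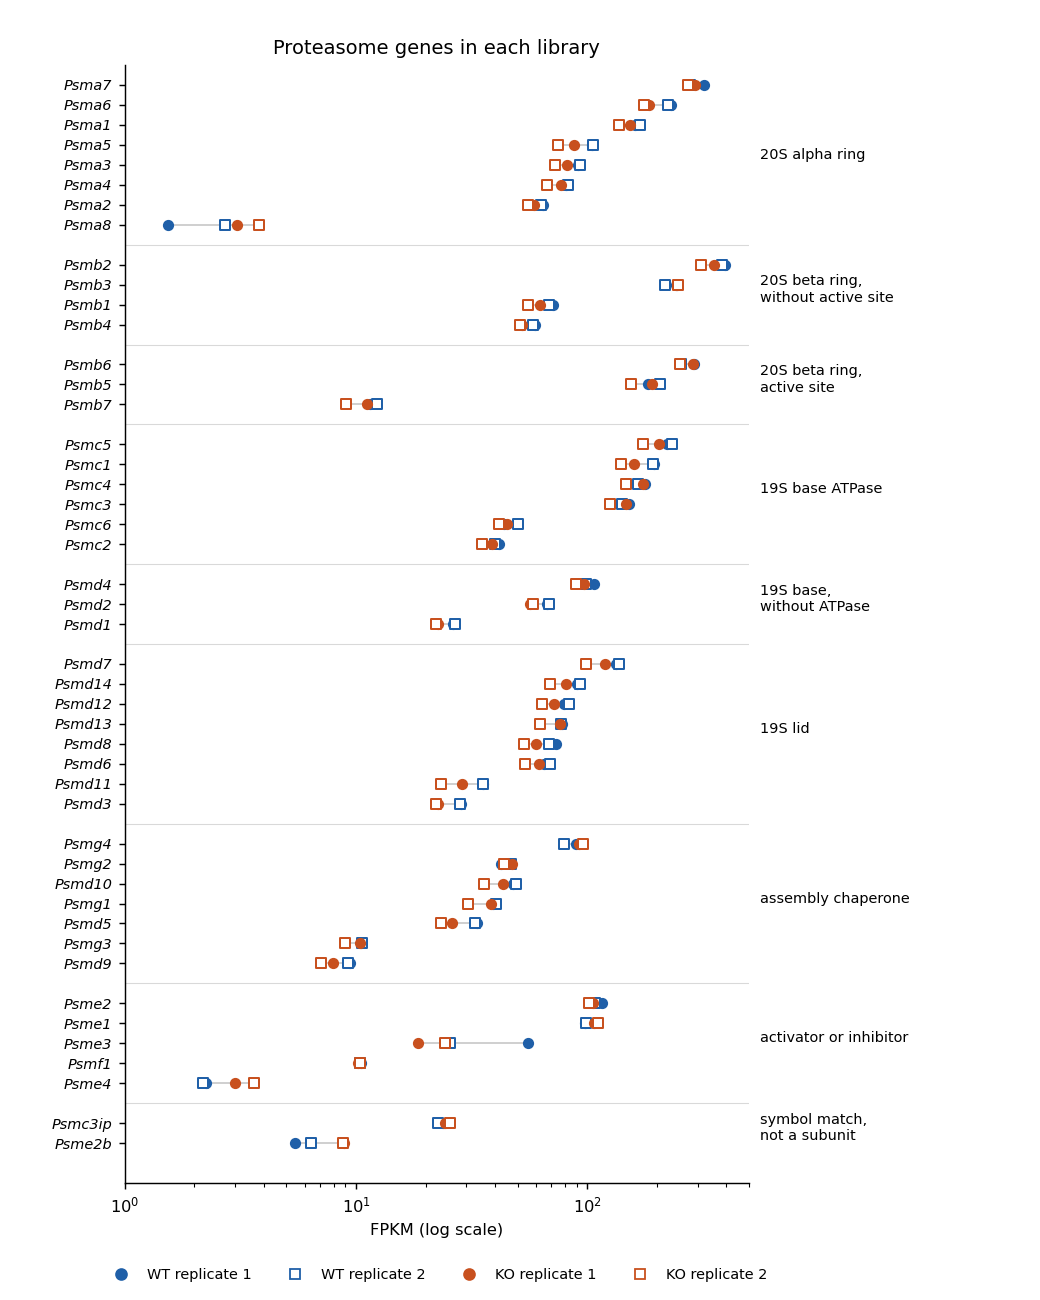
Level of each of the 46 proteasome genes in FPKM (log axis), one row per gene grouped by role, with WT libraries in blue, KO libraries in orange, circles for replicate 1 and open squares for replicate 2. KO replicate 2 is the lowest of the 4 libraries for 35 genes.

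The libraries did not contribute equally to this difference. The median gene of the set stood 0.098 below the WT mean on the log2 scale in KO replicate 1 and 0.27 below it in KO replicate 2, while the same medians over all tested genes were 0.022 and 0.025 above it. KO replicate 2 was the lowest library for 35 of the 46 genes, and the WT libraries were the highest for 20 (replicate 1) and 18 (replicate 2). Over all 11768 genes KO replicate 2 was the lowest for 3507, and the WT libraries were the highest for 2623 and 2927. The gap between the KO replicates had a median of 0.17 for the set and 0.13 for all genes, and the gap between the WT replicates had medians of 0.052 and 0.13. For 28 of the 46 genes the difference between group means exceeded both gaps, as it did for 4939 of all 11768 genes. Reads of the set made up 1.06% and 1.02% of assigned reads in WT and 0.966% and 0.877% in KO. Without KO replicate 2 the median log2 fold change was −0.098, and without KO replicate 1 it was −0.27.

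**Figure D2:**
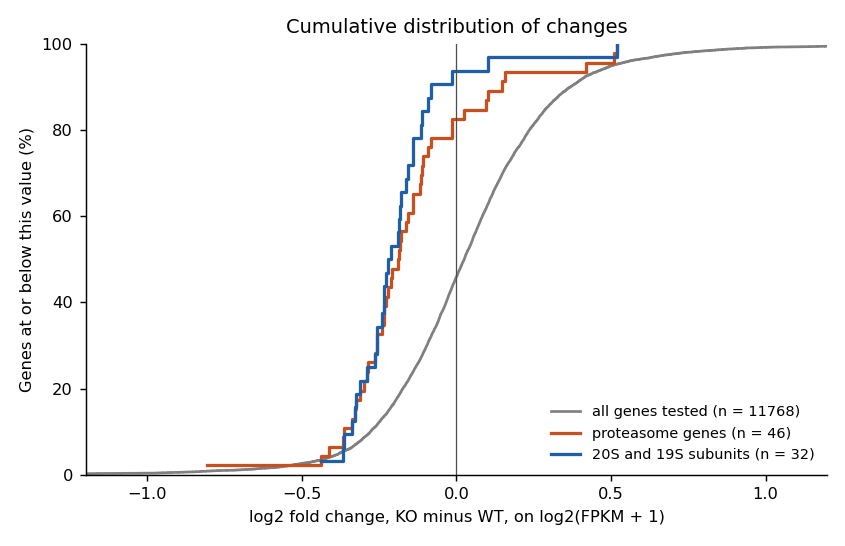
Cumulative share of genes (percent) at or below each log2 fold change of KO against WT, for all 11768 tested genes (grey), the 46 proteasome genes (orange) and the 32 subunits of the 20S core and 19S cap (blue). The curves of the proteasome sets lie to the left of the grey curve over most of the range, with medians of −0.19 and −0.22 against 0.025.

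The region before the transcription start was examined because most members lay lower together. RefSeq promoter entries (GRCm38.p6) matched 38 of the 46 genes, and the 250 bases before each start were searched on both strands for 8 short motifs chosen after the values were known. The ETS-type core CGGAAG was found for 19 of the 38 genes, or 48.8% of their 41 promoters, against 26.8% of the promoters of tested genes and 13.6% of all 32851 promoters. TGACNNNGC, the core of the element through which NRF1 acts, was found for 5 genes (12.2% of their promoters, 11.7% of those of tested genes and 10.2% of all). The shares for the other motifs, in the same order, were 31.7%, 36.2% and 33.9% for CCAAT, 53.7%, 56.6% and 32.7% for GGGCGG, 2.44%, 5.95% and 7.02% for TTCNNNGAA, and 7.32%, 4.39% and 1.96% for the motif of the factor ZNF143. The antioxidant response element, which extends TGACNNNGC by 1 base, was found for 1 gene (2.44%, 2.17% and 2.47%). TGACGTCA was found for 0 genes (2.54% of promoters of tested genes and 1.55% of all). The median log2 fold change was −0.21 for the 19 genes with CGGAAG and −0.16 for the 19 without it, and −0.18 for genes with and without TGACNNNGC. A match is a description of letters and not of a bound site.

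The first group of sequences shows CGGAAG, which reads CTTCCG on the other strand, in capitals. These are the 4 genes with the smallest limma p among those with a single promoter entry and this motif in the 120 bases before the start that hold no annotated exon. They encode lid and base subunits of the 19S cap, lie at chr11:80428495-80428614, chr12:100110034-100110153, chr16:20651532-20651651 and chr2:61711574-61711693, and are all on the plus strand.
Psmd11: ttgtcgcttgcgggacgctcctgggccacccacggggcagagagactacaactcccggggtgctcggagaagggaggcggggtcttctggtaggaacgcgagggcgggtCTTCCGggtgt
Psmc1: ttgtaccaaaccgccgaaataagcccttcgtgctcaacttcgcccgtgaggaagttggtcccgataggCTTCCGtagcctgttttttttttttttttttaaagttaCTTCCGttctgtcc
Psmd2: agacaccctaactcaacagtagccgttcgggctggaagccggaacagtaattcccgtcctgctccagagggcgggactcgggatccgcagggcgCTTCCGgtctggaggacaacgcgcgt
Psmd14: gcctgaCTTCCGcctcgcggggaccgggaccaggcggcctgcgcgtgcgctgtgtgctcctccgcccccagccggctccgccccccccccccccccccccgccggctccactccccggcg
In each of the 4 the motif reads CTTCCG on the gene's strand, and Psmc1 holds it at 2 places.

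The second group shows TGACNNNGC in capitals in the genes of 2 active-site subunits and of the base chaperone Psmd9. Of the 5 genes with this motif, Psmd12 and Psmc6 did not pass the filters on promoter entry and window and are not printed. Their log2 fold changes were −0.26 and −0.11. Psmd9 lies on the plus strand (chr5:123228070-123228189), Psmb5 on the minus strand (chr14:54618023-54618142) and Psmb6 on the plus strand (chr11:70525237-70525356).
Psmd9: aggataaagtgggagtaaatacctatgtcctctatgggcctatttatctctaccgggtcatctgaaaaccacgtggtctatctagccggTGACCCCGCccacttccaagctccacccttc
Psmb5: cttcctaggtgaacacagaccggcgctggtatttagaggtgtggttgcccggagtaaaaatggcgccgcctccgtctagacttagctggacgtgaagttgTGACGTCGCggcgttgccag
Psmb6: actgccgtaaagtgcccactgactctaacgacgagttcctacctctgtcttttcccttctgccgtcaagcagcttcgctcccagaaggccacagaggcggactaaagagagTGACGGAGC
Of the 3, Psmd9 had an unadjusted p below 0.05, and Psmb5 and Psmb6 did not, as the values by role show.

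In the alpha ring, which gates entry to the core, 7 of 8 genes had a log2 fold change below zero. Psma6 was at 231 and 225 FPKM in WT and at 185 and 175 in KO. Both KO libraries were lower than both WT libraries, and the log2 fold change was −0.34 (adjusted p = 0.138 by limma, 95% limits −0.55 to −0.12). Psma5 was at 104 and 105 FPKM in WT and at 88.1 and 75.045 in KO, a log2 fold change of −0.36 (−0.61 to −0.12, limma adjusted p = 0.151). Its WT libraries differed by less than the KO libraries did. Psma3 was at 91.4 and 93.4 FPKM against 81.8 and 72.8, and Psma1, Psma2 and Psma4 also had both KO libraries below both WT libraries, with log2 fold changes of −0.19, −0.16 and −0.18. Psma7, the most abundant alpha subunit mRNA, was at 320 and 279 FPKM in WT and 292 and 272 in KO. Its groups overlapped, and its log2 fold change of −0.081 became 0.017 without WT replicate 1.

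The remaining alpha gene, Psma8, encodes an alternative subunit known from the testis, where it takes the place of the Psma7 product. It was near the bottom of the set at 1.54 and 2.71 FPKM in WT and 3.05 and 3.79 in KO, from 71 and 112 against 140 and 161 reads. The KO libraries were higher, but WT replicate 2 was closer to KO replicate 1 than to WT replicate 1. Its log2 fold change was 0.52 (adjusted p = 0.236 by limma, 95% limits 0.0099 to 1.03), and 0.25 without WT replicate 1. The coding sequences of Psma7 and Psma8 were identical at 74.9% of aligned bases.

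The beta subunits without an active site complete the inner rings. Psmb2, the most abundant mRNA of the whole set per length of exon, was at 394 and 381 FPKM in WT and 353 and 310 in KO (log2 fold change −0.23, 95% limits −0.49 to 0.039, limma adjusted p = 0.292). Psmb1 was at 71.0 and 68.3 FPKM against 62.4 and 55.3, and Psmb4 at 59.3 and 58.5 against 52.2 and 51.2. For all 3 of these genes both KO libraries were lower than both WT libraries. Psmb4 had close replicates in both groups, and its log2 fold change was −0.18 (−0.37 to 0.0023, limma adjusted p = 0.244). Psmb3 differed in direction, at 242 and 218 FPKM in WT and 245 and 247 in KO (log2 fold change 0.10, limma adjusted p = 0.581).

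Of the 3 active-site subunits, the groups overlapped for Psmb5 and Psmb6 and not for Psmb7. Psmb5, which carries the chymotrypsin-like activity that bortezomib blocks, was at 183 and 207 FPKM in WT and 190 and 154 in KO. The groups overlapped, with a log2 fold change of −0.18 (adjusted p = 0.457 by limma, 95% limits −0.50 to 0.14). It was −0.030 without KO replicate 2 and −0.092 without WT replicate 2. Psmb6, with the caspase-like activity, was at 288 and 255 FPKM against 286 and 252. Its log2 fold change was −0.013 (−0.30 to 0.27), and without WT replicate 1 or KO replicate 2 it turned to 0.076 and 0.079. Psmb7, with the trypsin-like activity, was at 11.5 and 12.4 FPKM against 11.2 and 9.06, from 528 to 723 reads (log2 fold change −0.22, limma adjusted p = 0.342). Without KO replicate 2 the Psmb7 value was −0.082, and that library was the lowest for all 3 genes.

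The level of Psmb7 was far below that of its partners, although a core holds equal numbers of each. Leaving Psma8 aside, core genes of the constitutive particle ranged from 11.02 (Psmb7) to 359 (Psmb2) FPKM in their mean over libraries. The FPKM divides by the union of all annotated exons, 3421 bases for Psmb7 and 899 for Psmb5. Divided by the length of the principal transcript instead (1160 and 899 bases), the means were 32.5 FPKM for Psmb7, 184 for Psmb5 and 634 for Psmb6, and Psmb7 was still the lowest of these core genes. Exons of Nek6 on the other strand cover 11.8% of the exonic bases of Psmb7, and reads of the 2 strands are not told apart here. Over the 46 genes the 2 scales had a Spearman rho of 0.96, from the same libraries and reads. With either scale an mRNA level is not a count of protein subunits.

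The immunoproteasome genes, left out of the set by the rule, were expressed at levels near those of their constitutive counterparts for 1 pair only. Psmb8, the counterpart of Psmb5, was at 170 and 146 FPKM in WT and 140 and 134 in KO (log2 fold change −0.20, 95% limits −0.45 to 0.053, limma adjusted p = 0.323). Psmb9, the counterpart of Psmb6, was at 39.4 and 38.9 against 41.0 and 34.3 (−0.060, limma adjusted p = 0.770). Psmb10, the counterpart of Psmb7, was at 151 and 132 against 129 and 106 (−0.26, limma adjusted p = 0.287). Neither limma nor limma-voom called any of the 3, and their unadjusted limma p were all above 0.05. In each library the sum of the 3 immunoproteasome genes was 0.747 and 0.669 times that of Psmb5, Psmb6 and Psmb7 in WT, and 0.636 and 0.662 times in KO. Both KO ratios lay below both WT ratios, but WT replicate 2 and KO replicate 2 were nearly equal. By pair, Psmb8 was 0.708 to 0.930 times Psmb5, Psmb9 was 0.136 to 0.153 times Psmb6, and Psmb10 was 10.6 to 13.2 times Psmb7 over the 4 libraries. In all 3 pairs the ratios of WT and KO overlapped. The members of each pair share 67.6%, 67.5% and 64.6% of aligned coding bases, so they are not near-identical copies.

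**Figure D3:**
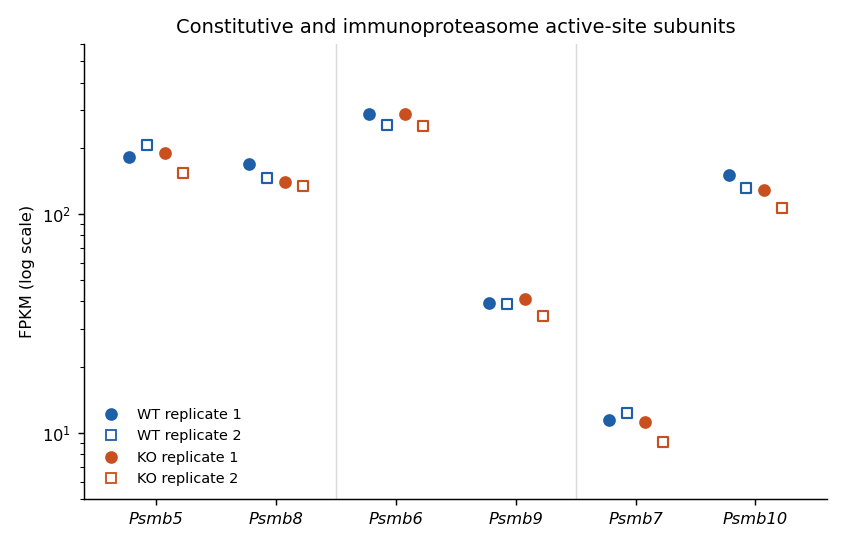
Level in FPKM (log axis) of the constitutive active-site genes and their immunoproteasome counterparts, side by side in pairs, 4 libraries each. Psmb8 is near Psmb5, Psmb9 lies below Psmb6 and Psmb10 above Psmb7 in all 4 libraries.

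In the base of the 19S cap, the 6 ATPase genes were all below zero, at levels from 38.7 (Psmc2) to 209 (Psmc5) FPKM. Psmc1 differed most, at 194 and 192 FPKM in WT and 159 and 140 in KO, a log2 fold change of −0.37 (adjusted p = 0.143 by limma, 95% limits −0.61 to −0.13). Its 2 WT libraries were close together and both KO libraries lay lower. Psmc5 was at 221 and 234 FPKM against 205 and 175 (−0.27, −0.53 to 0.0032, limma adjusted p = 0.244), and Psmc2 at 41.4 and 39.8 against 38.6 and 35.0. The groups did not overlap for these 2 either. Psmc3, Psmc4 and Psmc6 had log2 fold changes of −0.11, −0.093 and −0.11, and their groups overlapped. Without KO replicate 2, Psmc3 was at 0.0032 and Psmc4 at 0.029.

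The base subunits without ATPase activity hold the cap's docking sites for ubiquitin and its carriers. Psmd1, a scaffold, was at 26.3 and 26.9 FPKM in WT and 22.6 and 22.2 in KO (log2 fold change −0.23, 95% limits −0.43 to −0.044, limma adjusted p = 0.189). Psmd2, which binds carriers of ubiquitinated proteins, was at 66.9 and 68.6 FPKM against 56.6 and 58.3 (−0.23, −0.42 to −0.043, limma adjusted p = 0.190). In both genes the replicates of each group were close, and without KO replicate 2 the log2 fold changes were −0.22 and −0.26. Psmd4, a ubiquitin receptor, was at 107 and 99.1 against 97.2 and 89.9 (−0.14, limma adjusted p = 0.415).

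The lid, which removes ubiquitin chains before degradation, had the lowest median of the roles. For all 8 lid genes the KO libraries were the 2 lowest (24.9% of all tested genes), and 6 were lower at an unadjusted p below 0.05 (9.35%). The median log2 fold change was −0.30. Limma called 0 of the 8 and limma-voom 2 (Psmd11 and Psmd3), where limma-voom called 3.09% of all genes lower. Psmd11, a lid scaffold whose level is linked to proteasome assembly in embryonic stem cells, was at 35.4 and 35.5 FPKM in WT and 28.9 and 23.2 in KO. Its log2 fold change of −0.44 was the lowest among the 32 core and cap subunits (adjusted p = 0.139 by limma, 95% limits −0.72 to −0.16). Psmd3 was at 28.4 and 28.1 FPKM against 22.6 and 22.1, with replicates close together in both groups (−0.32, −0.51 to −0.13, limma adjusted p = 0.118). Psmd14, the deubiquitinase of the lid, was at 90.4 and 93.3 FPKM against 80.9 and 69.4 (−0.29, −0.54 to −0.045, limma adjusted p = 0.195). Psmd7, its inactive partner, was at 133 and 137 against 119 and 99.3. The remaining lid genes Psmd8, Psmd12, Psmd6 and Psmd13 had log2 fold changes of −0.33, −0.26, −0.21 and −0.16. For Psmd13 this rested on KO replicate 2, since it was at 77.5 and 77.3 FPKM in WT, 76.0 in KO replicate 1 and 62.6 in KO replicate 2, and the value without KO replicate 2 was −0.027.

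**Figure D4:**
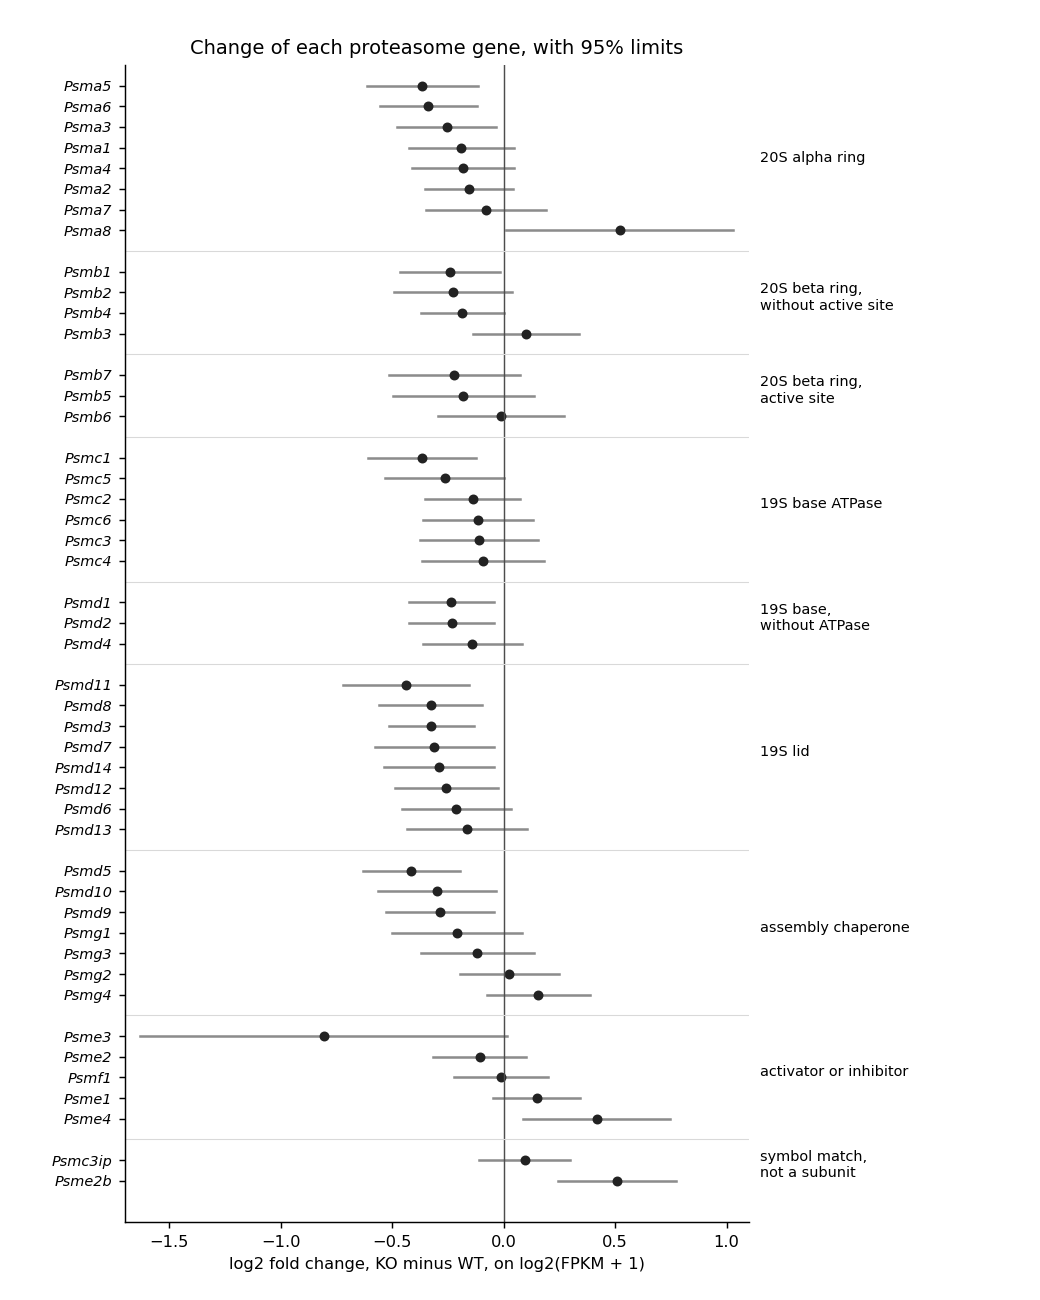
Log2 fold change of KO against WT for each proteasome gene (points) with limma's 95% limits (bars), grouped by role. All lid genes lie left of zero, and no gene has an adjusted p below 0.05.

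Among assembly chaperones the genes for the cap all lay lower in KO, while those for the core lay in both directions. The chaperones of the 19S base, Psmd5, Psmd9 and Psmd10, all had both KO libraries below both WT libraries. Psmd5 was at 33.5 and 32.7 FPKM in WT and 26.1 and 23.2 in KO, a log2 fold change of −0.41 (95% limits −0.63 to −0.19). Its limma p of 0.0035 was the smallest among genes of the set that lay lower, and its limma adjusted p was 0.106. Psmd10, also known as the oncoprotein gankyrin, was at 47.9 and 49.3 FPKM against 43.2 and 35.7 (−0.30, limma adjusted p = 0.205). Psmd9 was at 9.44 and 9.23 against 7.92 and 7.05 (−0.29, limma adjusted p = 0.196), and 25.5% of its exonic bases are shared with Gm26745 on the other strand. For the chaperones of the alpha ring the groups separated in the same direction for Psmg1 and Psmg3, in the other for Psmg4, and overlapped for Psmg2. Psmg1 was at −0.21, Psmg2 at 0.024, Psmg3 at −0.12 and Psmg4 at 0.16 on the log2 scale, with limma adjusted p from 0.364 to 0.896. Psmg4 was at 89.8 and 79.3 FPKM in WT and 92.5 and 95.8 in KO, both KO libraries above both WT libraries. Whether the 2 kinds of chaperone differ was not tested.

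The alternative caps gave values in both directions, with a median log2 fold change of −0.013 over their 4 genes and Psmf1. PA28 alpha and beta form a ring that opens the core without ATP and is induced by interferon gamma. Psme1 (PA28 alpha) was at 98.2 and 98.5 FPKM in WT and 107 and 111 in KO (log2 fold change 0.15, 95% limits −0.047 to 0.34, limma adjusted p = 0.338). Psme2 (PA28 beta) was at 116 and 109 FPKM against 106 and 102 (−0.11, −0.32 to 0.099, limma adjusted p = 0.493). The groups did not overlap for either gene, in opposite directions. The ratio of Psme1 to Psme2 was 0.847 and 0.907 in WT and 1.01 and 1.09 in KO. Psme4, which encodes PA200, a cap linked to histone degradation and DNA repair, was low at 2.24 and 2.17 FPKM in WT and 2.99 and 3.61 in KO, from 302 to 515 reads. Its log2 fold change was 0.42 (0.088 to 0.75, limma adjusted p = 0.183), and limma-voom called it higher. Psmf1, an inhibitor and regulator of proteasome assembly, was at 10.5 and 10.4 FPKM against 10.2 and 10.5 (−0.013, −0.22 to 0.20).

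Psme3 (PA28 gamma), a nuclear cap, had the widest spread of the set. It was at 55.5 and 25.6 FPKM in WT and at 18.5 and 24.2 in KO, from 3021 and 1252 against 1003 and 1215 reads. WT replicate 1 stood apart, and the other 3 libraries lay between 18.5 and 25.6 FPKM. The log2 fold change of −0.81 (adjusted p = 0.245 by limma, 95% limits −1.63 to 0.015) was −0.26 without WT replicate 1.

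**Figure D5:**
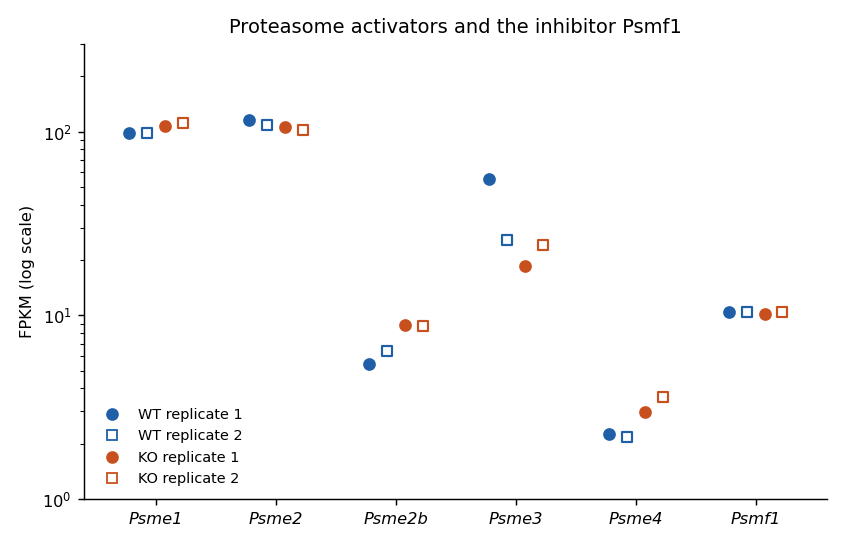
Level in FPKM (log axis) of the genes of alternative caps, of Psme2b and of the inhibitor Psmf1 in each library. Psme4 and Psme2b lie higher in both KO libraries, and 1 WT library of Psme3 stands at 55.5 FPKM against 18.5 to 25.6 in the others.

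Psme2b had the smallest limma p of the 46 genes (0.0034, limma adjusted p = 0.104). It was at 5.44 and 6.41 FPKM in WT and 8.89 and 8.77 in KO, a log2 fold change of 0.51 (95% limits 0.24 to 0.78), from 84 and 89 against 137 and 125 reads. Its coding sequence differs from that of Psme2 at 5 of 717 bases (99.3% identity), so short reads can be placed uniquely only where they cover one of these bases or sequence outside the coding part. The stretch from coding base 484 to 543 (GENCODE M21) holds 3 of the 5, shown in capitals.
Psme2: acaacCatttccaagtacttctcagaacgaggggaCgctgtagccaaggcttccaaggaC
Psme2b: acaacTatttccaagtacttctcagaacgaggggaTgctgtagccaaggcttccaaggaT
Psme2 has many times the reads of Psme2b, 3068 to 3774 against 84 to 137, and the 2 genes lay in opposite directions. The value of Psme2b is therefore uncertain, and whether reads of Psme2 enter it was not tested. Psmc3ip, the other gene counted apart from the proteasome roles, was at 23.9 and 22.6 FPKM against 24.2 and 25.6 (0.094, limma adjusted p = 0.546).

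Shared reads could touch other members as well. For 10 of the 46 genes GENCODE holds another gene whose transcript matches at least 80% of the coding length with at least 95% identity, mostly processed pseudogenes. They are Psma3, Psma4, Psma5, Psmb3, Psmb5, Psmc1, Psmd2, Psmd11, Psme2 and Psme2b. Their median log2 fold change was −0.21, and that of the 36 genes without such a copy was −0.19. For 8 genes, Psmb5 again among them, more than 5% of exonic bases lie in exons of another gene. Leaving out both kinds left 29 genes with a median of −0.19. The 46 genes lie on 16 chromosomes, with 10 on chromosome 11.

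Genes that work with the proteasome but carry other symbols were compared next. For the counts in these lists, 9.35% of all tested genes were lower and 11.4% higher at an unadjusted p below 0.05. Limma-voom called 3.09% of all genes lower and 3.12% higher. Of the 6 subunits and assembly factors outside the symbol rule, limma and limma-voom called 0, and at an unadjusted p below 0.05 there was 1 higher and 1 lower. Adrm1, another ubiquitin receptor of the cap, was at 55.9 and 54.7 FPKM in WT and 47.6 and 41.2 in KO (log2 fold change −0.31, 95% limits −0.55 to −0.079, limma adjusted p = 0.168). Pomp, the chaperone that starts the beta ring, was at 61.5 and 60.9 against 57.5 and 55.1 (−0.12). Sem1, the smallest lid subunit, was at 79.7 and 79.2 against 87.7 and 90.8, so it lay higher in KO while the 8 lid genes of the set lay lower (0.17, −0.026 to 0.36, limma adjusted p = 0.286). Ecpas, a large adaptor that tethers the cap to the core, was at 9.72 and 10.9 against 12.7 and 14.7 (0.37, 0.11 to 0.64, limma adjusted p = 0.160).

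Of 12 shuttle receptors, deubiquitinases and other partners, 0 were called by limma, 2 had an unadjusted p below 0.05, both lower, and the median log2 fold change was −0.096. Ubqln1, a shuttle that carries ubiquitinated proteins, was at 34.6 and 24.8 FPKM in WT and 18.8 and 20.05 in KO (−0.57, 95% limits −0.95 to −0.19, limma adjusted p = 0.144), and limma-voom called it lower. As for Psme3, WT replicate 1 was the highest library. Txnl1, a redox protein bound to the cap, and Usp14, a deubiquitinase of the cap, had log2 fold changes of −0.32 and −0.19.

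Among 11 genes of the transcriptional control of proteasome genes 0 were called by limma, 2 were higher and 1 lower at an unadjusted p below 0.05, and the median was −0.090. Nfe2l1 itself was at 12.6 and 12.3 FPKM in WT and 12.5 and 11.4 in KO, and Nfe2l2, which encodes its relative NRF2, at 14.1 and 14.8 against 13.5 and 13.6. Both were named for this role and not by their p (log2 fold changes −0.059 and −0.090, limma adjusted p = 0.739 and 0.565). Ddi2, the protease that cuts NRF1 into its active form, was at 7.32 and 5.70 FPKM against 4.30 and 4.76 (−0.44, 95% limits −0.77 to −0.099, limma adjusted p = 0.177), and limma-voom called it lower. The small Maf genes Mafg and Maff, whose products pair with NRF1 and NRF2, lay higher in both KO libraries (0.23 and 0.28, limma adjusted p = 0.198 and 0.207). Mafk, of the same family, lay lower in both, at 9.57 and 11.3 FPKM in WT against 9.23 and 9.22 (−0.16, limma adjusted p = 0.432). Keap1, which restrains NRF2, was at −0.19 (limma adjusted p = 0.354).

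Ubiquitin genes and their activating enzymes had 0 calls among 6 by limma and by limma-voom, 1 unadjusted p below 0.05 and a median of 0.081. Uba6, an activating enzyme, was at 0.26, and Rps27a, which encodes ubiquitin fused to a ribosomal protein, at −0.17. For the segregase p97 and degradation from the endoplasmic reticulum 0 of 14 were called by limma, 2 had an unadjusted p below 0.05, both lower, and the median was −0.036. Faf1, a p97 cofactor, was at 15.3 and 12.9 against 10.2 and 9.99 (−0.44, 95% limits −0.70 to −0.17, limma adjusted p = 0.126), and limma-voom called it lower. Vcp, p97 itself, was at 85.5 and 94.9 against 76.6 and 75.1 (−0.24, limma adjusted p = 0.204), and Derl1 and Ufd1 were at −0.18 and −0.15.

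Peptides from the proteasome feed class I antigen presentation, and of 10 genes of that pathway and of the interferon response 1 fell and 0 rose by limma, and limma-voom called 3 lower. Tapbp, the chaperone tapasin that holds class I molecules at the peptide transporter, was at 106 and 106 FPKM in WT and 70.6 and 74.1 in KO, a log2 fold change of −0.54 (adjusted p = 0.0497 by limma, 95% limits −0.74 to −0.35). This call ended under 9 of the 11 alternatives (adjusted p = 0.0506 to 0.234 by limma), among them the fits with a replicate block (adjusted p = 0.079) and without 1 library (0.113 to 0.234). The class I heavy chain gene H2-K1 was at 434 and 451 FPKM against 334 and 349 (limma adjusted p = 0.140). H2-D1, a second heavy chain, was at 1529 and 1525 against 1134 and 993 (limma adjusted p = 0.139). Both were called lower by limma-voom, and class I genes resemble each other enough for reads to be shared. Tap2, 1 chain of the peptide transporter, was at 97.1 and 96.0 against 82.2 and 77.0 (limma adjusted p = 0.163).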

How the data were processed

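The authors deposited 1 table of 16442 genes in 4 libraries. Its unit is not named; the values behaved as FPKM with 1 added by the authors, since the lowest was exactly 1, and that 1 was subtracted. The submitters' processing notes name the build GRCm38 and the tools featureCounts, HISAT2 2.1.0, DESeq2 and CASAVA, with no role or order. Oligo-dT selected RNA was copied with random primers, per the labels' protocols, with no marking of strand described. Of the genes, 16014 matched 1 GENCODE M21 gene by symbol, all 46 members among them. FPKM times exonic length fell on whole reads (tolerance 0.05) for 99.0% to 99.2% of values up to 30 reads, and whole reads were recovered for 15787 genes. These gave the depths, at which 3 reads on 1 kilobase amount to 0.163 to 0.181 FPKM, covering counting error only. Replicates differed by more than sampling noise (chi-square per degree of freedom 11.0 in WT and 13.1 in KO).

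KO and WT were compared with limma 3.58.1 (R 4.3.3), trend form, on log2(FPKM + 1), two-sided, Benjamini-Hochberg adjusted at 0.05, over genes whose mean level reached 1 FPKM, with group as the only term. Fold changes on this scale understate those of low genes. The limma-voom alternative used TMM (trimmed mean of M values) factors and whole reads. The procedure was tested on simulated data. Genes were named by rule: in each role the 2 with the smallest p and the highest and lowest in level, and up to 4 per pathway list by smallest p. Other members are given by their values, and Nfe2l1 and Nfe2l2 were added for their role. Some genes that the rule would name are not reported here. The members and lists were chosen with earlier results of these data known.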

Additional observations from a re-analysis of the deposited data

How the results depend on the processing

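The count of proteasome genes called was 0 in each direction under 10 of the 11 alternatives, and 1 higher and 6 lower by limma-voom on recovered reads. Their median log2 fold change was below zero under all of them, from −0.27 to −0.098 with 1 library left out (lowest without KO replicate 1, nearest zero without KO replicate 2), and −0.22 with only 20S and 19S subunits kept. For those 32 subunits it ran from −0.31 to −0.12 with 1 library left out. Scaling the libraries to a common median gave −0.22 for the 46 genes, and quantile normalization −0.16. The log2 ratio of immunoproteasome to constitutive active-site genes was −0.12 (KO minus WT), from −0.20 to −0.043 with 1 library left out, and −0.031 as the mean over 3 pairs.

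Over all genes, 71 higher and 48 lower calls became 22 and 10 without the filter on level, 108 and 82 with a filter at a mean of 5 FPKM, 45 and 28 with median scaling, and 416 and 412 by limma-voom. With 1 library left out they were 4 to 50 and 2 to 14, in fits with fewer samples where the lone library is assumed to vary like the other group. With the replicate block they were 40 and 26, and 0 proteasome genes were called. The labels give the replicates only a number, and same-numbered libraries did not deviate together (correlation 0.0090 across genes).

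Among the genes named by rule, direction turned in 5 cases: Psma7 to 0.017 and Psmb6 to 0.076 without WT replicate 1, Psmb6 to 0.079 and Psmb9 to 0.066 without KO replicate 2, and Rreb1 to −0.013 without WT replicate 1. With 1 library left out the log2 fold changes ran from −0.18 to 0.017 for Psma7, from −0.11 to 0.079 for Psmb6, from −0.19 to 0.066 for Psmb9 and from −0.013 to 0.27 for Rreb1. Of the other members, Psmc3 and Psmc4 turned to 0.0032 and 0.029 without KO replicate 2, Psmg2 to −0.043 without WT replicate 1 and −0.032 without KO replicate 1, and Psmf1 to 0.0037 without KO replicate 1. Tapbp lost its call under 9 of 11 alternatives. The causes were not tested. Limits of depth are small for these genes, of which the fewest reads in a library were 71 (Psma8, WT replicate 1).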
